A study of Mus musculus with 25 samples.

Results

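The 8 genes described here (Cyp2a4, Cyp2a5, Cyp2b9, Cyp2b13, Cyp2c40, Cyp2c69, Acot3 and Slc22a26) are mouse liver genes classed as repressed by pulses of growth hormone (GH). They were chosen by symbol, are 8 of the 17838 genes with a finite value above 0 in the deposited table, and all 8 were among the 9372 genes that passed a filter on low values. The class and not a measurement of GH chose them, and GH itself was not measured, so the name of the class could not be checked in these livers.

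The samples were livers of 25 C57BL/6 mice, 5 in each of 5 groups, that had spent 5 weeks in parabiosis, the surgical joining of 2 mice so that blood passes between them. O (Yg Het) livers were those of wild-type (WT) mice aged 21 months joined to young mice heterozygous for Manf (ManfHet), the gene of a secreted stress-response protein. O (YgWT) livers were of WT mice aged 21 months joined to young WT mice, and O-O livers of WT mice aged 21 months joined to old mice. Yg Het livers were of the ManfHet partners and Yg WT livers of the WT partners, both aged 5 months. Every animal, controls included, had been through parabiosis, and the labels do not tie an old animal to its own young partner. The labels give no sex. Xist, the RNA that coats the inactive X chromosome, stood between 0 and 0.0109 RPKM (reads per kilobase of a gene's model, relative to library depth) in the 25 libraries, while the Y-linked Ddx3y stood between 7.19 and 11.1 RPKM. By these transcripts all 25 livers were male.

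In male rodents the pituitary releases GH in pulses, and in females its release is nearly continuous. A pulse activates the transcription factor STAT5B in hepatocytes, which drives male-biased genes and, directly or through repressors, holds a class of female-biased genes low. In male liver these genes are known to come up when the pulses or STAT5B are lost. Of the 8 genes, 6 encode cytochrome P450 monooxygenases of the endoplasmic reticulum, which hydroxylate steroids, fatty acids, drugs and other foreign compounds. Acot3 encodes a peroxisomal acyl-CoA thioesterase, and Slc22a26 a member of the organic anion transporter family.

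The 6 P450 genes form 3 pairs of close copies. In GENCODE M21 (mm10), Cyp2b13 (26061497 to 26096197), Cyp2b9 (26173411 to 26210661), Cyp2a4 (26307169 to 26315088) and Cyp2a5 (26835305 to 26843548) lie on the plus strand of chromosome 7. Cyp2c40 (39767071 to 39812814), Cyp2c69 (39842814 to 39886799) and Slc22a26 (7781041 to 7802667) lie on the minus strand of chromosome 19, and Acot3 (84052144 to 84060402) on the plus strand of chromosome 12. The longest transcripts of Cyp2a4 and Cyp2a5 were 98.3% identical, those of Cyp2c40 and Cyp2c69 97.8% and those of Cyp2b9 and Cyp2b13 91.6%. The Cyp2c40 and Cyp2c69 transcripts shared a run of 282 identical bases and the Cyp2a4 and Cyp2a5 transcripts a run of 216, so a read can match both copies. How such reads were counted was not stated, so values within a pair may be partly exchanged, or such reads may have been left out. In O (YgWT) replicate 1, Cyp2a4 had 1 read beside 2350 of Cyp2a5, so few Cyp2a5 reads can have been counted for Cyp2a4 there. Of the 100-base windows of the Cyp2b9 transcript, 1.18% were also in the Cyp2b13 transcript, beside 11.2% for Cyp2a4 in Cyp2a5.

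The promoters of the 3 pairs are shown because copies with nearly the same sequence before the start of transcription did not always pass the same comparisons, and Cyp2a5 and Cyp2a4 also differed widely in level. Each runs from 250 bases before to 50 bases after the start given by RefSeq (GRCm38.p6), 5′ to 3′, and capitals mark the bases that differ from the partner copy. The Cyp2a4 (chr7:26306942-26307241, plus strand) and Cyp2a5 (chr7:26835089-26835388, plus strand) windows were identical at 294 of 299 aligned bases.
Cyp2a4: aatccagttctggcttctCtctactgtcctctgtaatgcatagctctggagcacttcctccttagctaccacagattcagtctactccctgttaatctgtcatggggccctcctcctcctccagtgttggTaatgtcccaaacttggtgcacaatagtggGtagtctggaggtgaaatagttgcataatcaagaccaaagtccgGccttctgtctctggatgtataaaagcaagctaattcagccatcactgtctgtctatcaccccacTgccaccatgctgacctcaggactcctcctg
Cyp2a5: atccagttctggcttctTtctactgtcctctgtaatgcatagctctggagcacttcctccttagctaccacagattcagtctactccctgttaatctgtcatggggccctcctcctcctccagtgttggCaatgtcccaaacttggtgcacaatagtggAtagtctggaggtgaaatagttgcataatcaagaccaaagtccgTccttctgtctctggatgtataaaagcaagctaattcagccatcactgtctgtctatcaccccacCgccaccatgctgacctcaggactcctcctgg
The Cyp2b9 (chr7:26173159-26173458, plus strand) and Cyp2b13 (chr7:26061245-26061544, plus strand) windows were identical at 298 of 300 bases.
Cyp2b9: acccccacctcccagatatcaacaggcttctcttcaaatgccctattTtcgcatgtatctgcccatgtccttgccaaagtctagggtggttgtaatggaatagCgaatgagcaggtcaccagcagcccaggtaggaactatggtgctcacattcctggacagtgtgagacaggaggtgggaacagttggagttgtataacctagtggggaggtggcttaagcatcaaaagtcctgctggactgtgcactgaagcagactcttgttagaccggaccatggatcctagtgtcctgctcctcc
Cyp2b13: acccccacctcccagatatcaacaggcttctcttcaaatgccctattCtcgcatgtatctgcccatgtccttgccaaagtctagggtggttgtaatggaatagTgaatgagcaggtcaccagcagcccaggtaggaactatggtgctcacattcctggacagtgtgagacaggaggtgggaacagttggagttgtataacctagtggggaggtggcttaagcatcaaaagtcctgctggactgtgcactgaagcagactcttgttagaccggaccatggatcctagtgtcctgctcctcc
The Cyp2c40 (chr19:39812765-39813064, minus strand) and Cyp2c69 (chr19:39886720-39887019, minus strand) windows start 30 bases apart and were identical at 267 of the 270 bases they share.
Cyp2c40: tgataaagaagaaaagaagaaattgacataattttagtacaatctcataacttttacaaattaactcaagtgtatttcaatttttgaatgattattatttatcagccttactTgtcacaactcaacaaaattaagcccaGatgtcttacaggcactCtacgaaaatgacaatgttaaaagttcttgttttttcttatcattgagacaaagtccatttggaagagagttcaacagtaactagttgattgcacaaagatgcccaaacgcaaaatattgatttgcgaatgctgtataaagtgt
Cyp2c69: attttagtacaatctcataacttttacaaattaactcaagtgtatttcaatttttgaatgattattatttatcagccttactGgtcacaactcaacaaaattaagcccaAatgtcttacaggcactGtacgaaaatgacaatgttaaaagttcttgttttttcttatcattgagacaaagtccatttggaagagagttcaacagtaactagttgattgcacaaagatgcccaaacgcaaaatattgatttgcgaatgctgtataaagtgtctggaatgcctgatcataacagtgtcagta

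Both strands of the 8 windows were searched for 4 short motifs. The STAT5 element TTCNNNGAA, held by 8.33% of 32544 mouse promoters of the same length, was found in the Slc22a26 window at base -141 alone. TTGCNNAA, a form bound by C/EBP and PAR bZIP factors (10.8% of promoters), was found in all 6 P450 windows, at bases -70 and -71 in Cyp2a4 and Cyp2a5, -180 in Cyp2b9 and Cyp2b13, and -5 and -35 in Cyp2c40 and Cyp2c69. The D-box TTANGTAA (2.29% of promoters) was found in the Slc22a26 window at base 8, and ATTGAT, the core of the HNF6 site (7.42% of promoters), in the Cyp2c40, Cyp2c69 and Slc22a26 windows. No 2 matches overlapped, and the Acot3 window held none of the 4 motifs.

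Levels are the deposited RPKM, and a mean is followed by its SD (n = 5 livers). Differences between groups are in log2 of RPKM plus 0.5, ± SE, from limma fitted over all 9372 tested genes, with p-values adjusted by the Benjamini-Hochberg method over those genes and a threshold of 0.05. The added constant makes differences of low genes smaller than those of their RPKM. RPKM is per length of gene model, so levels can be set beside each other between genes. Libraries rested on 21.8 to 27.6 M reads (megareads). The spread reported is that between these livers. The SE of a gene is pooled over the 5 groups, so it is the same in every comparison of groups and not that of the groups compared. The groups differed in spread. For Cyp2a4 the SD of the log2 values was 0.157 in Yg WT, 0.408 in Yg Het and 2.36 in O (Yg Het) livers, beside an SE of 0.76.

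Cyp2a5, the coumarin hydroxylase of mouse liver, was the most abundant of the 8 genes in every group. It stood at 454, 471, 793, 550 and 269 RPKM in O (Yg Het) livers, against 46.7, 99.3, 56.8, 177 and 191 RPKM in O (YgWT) livers. O-O livers had 221, 170, 214, 310 and 330 RPKM. All 5 O (Yg Het) livers were above all 5 O (YgWT) livers, while O-O livers overlapped both. The ManfHet partners had 297, 365, 1182, 448 and 215 RPKM in Yg Het livers, against 149, 130, 151, 166 and 162 RPKM in Yg WT livers. All 5 Yg Het livers were above all 5 Yg WT livers, and replicate 3 of Yg Het held the highest value of the 25. By mean the order was O (Yg Het), Yg Het, O-O, Yg WT and O (YgWT), and O-O and Yg WT were the only neighbours in it that did not overlap.

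Cyp2a5 was higher in O (Yg Het) than in O (YgWT) livers by 2.29 ± 0.39 (adjusted p = 0.000464, means 507 ± 190 and 114 ± 66.8 RPKM). Between the young groups it was higher in Yg Het than in Yg WT livers by 1.46 ± 0.39 (adjusted p = 0.0323, means 501 ± 390 and 152 ± 14.1 RPKM). This second call was held in 4 of 10 omissions of a single library. Without Yg Het replicate 2, 3 or 4 or Yg WT replicate 1, 2 or 3 it was lost, with an adjusted p of up to 0.111. O (Yg Het) and Yg Het livers did not differ beyond the spread, with a difference of 0.20 ± 0.39 (adjusted p = 0.738, 95% interval -0.60 to 1.01).

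Cyp2a4, which encodes a steroid hydroxylase, had a far lower level and a far wider range. It stood at 7.48, 18.0, 96.1, 4.92 and 0.634 RPKM in O (Yg Het) livers, against 0.0237, 0.815, 0.0433, 0.940 and 5.60 RPKM in O (YgWT) livers. O-O livers had 2.71, 3.90, 1.16, 3.99 and 7.94 RPKM. The O (Yg Het) and O (YgWT) livers overlapped through replicate 5 of each, which lay low and high in its group. Yg Het livers had 0.222, 0.307, 0.919, 0.321 and 0.217 RPKM and Yg WT livers 0.156, 0.0911, 0.0470, 0.231 and 0.119 RPKM. The young libraries rested on 2 to 40 reads, and every O-O liver was above every young liver. The reads ran from 1 in O (YgWT) replicate 1 to 4257 in O (Yg Het) replicate 3. By mean the order was O (Yg Het), O-O, O (YgWT), Yg Het and Yg WT, with overlap between each pair of neighbours.

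Cyp2a4 was higher in O (Yg Het) livers than in O (YgWT) livers by 2.94 ± 0.76 (adjusted p = 0.00690, means 25.4 ± 40.0 and 1.48 ± 2.34 RPKM). It was also higher in O (Yg Het) than in Yg Het livers by 3.49 ± 0.76 (adjusted p = 0.0221) and in O-O than in Yg WT livers by 2.64 ± 0.76 (adjusted p = 0.0307). Between Yg Het and Yg WT livers the difference was 0.47 ± 0.76 (adjusted p = 0.773). The O (Yg Het) against Yg Het call was lost without Yg Het replicate 1, 2 or 4 (adjusted p up to 0.0669), and the O-O against Yg WT call without Yg WT replicate 2 or 3 or O-O replicate 4 or 5 (adjusted p up to 0.0765).

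Cyp2c40 encodes a P450 that oxidises arachidonic acid, and Cyp2c69 encodes its near copy. Cyp2c69 stood at 8.70, 11.2, 36.0, 13.5 and 5.11 RPKM in O (Yg Het) livers, against 0.884, 1.12, 0.617, 1.17 and 11.1 RPKM in O (YgWT) livers. O-O livers had 6.06, 5.75, 6.70, 2.29 and 0.841 RPKM. Replicate 5 of O (YgWT) was the only liver of its group to reach into the range of O (Yg Het) livers. Yg Het livers had 0.196, 0.371, 0.789, 0.340 and 0.213 RPKM, against 1.83, 0.492, 1.94, 0.611 and 0.746 RPKM in Yg WT livers. Every O (Yg Het) liver was above every young liver of either genotype. By mean the order for both genes was O (Yg Het), O-O, O (YgWT), Yg WT and Yg Het, with overlap between each pair of neighbours.

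Cyp2c69 was higher in O (Yg Het) livers than in O (YgWT) livers by 2.52 ± 0.55 (adjusted p = 0.00246, means 14.9 ± 12.2 and 2.99 ± 4.56 RPKM). Of the 8 genes, it alone passed between O (Yg Het) and O-O livers, at 1.62 ± 0.55 (adjusted p = 0.0368). That call was lost without O-O replicate 4 or 5 or O (Yg Het) replicate 2, 3 or 4, with an adjusted p of up to 0.112. With only the compared groups fitted, Cyp2c69 was lost (adjusted p = 0.0647) and Cyp2a5 passed in its place (adjusted p = 0.0357). Against Yg Het livers, Cyp2c69 in O (Yg Het) livers was higher by 3.86 ± 0.55 (adjusted p = 0.00187), a call held in 10 of 10 omissions.

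Cyp2c40 stood at 6.64, 14.9, 28.3, 11.9 and 6.15 RPKM in O (Yg Het) livers, against 0.748, 2.67, 1.16, 1.80 and 14.3 RPKM in O (YgWT) livers. O-O livers had 7.39, 7.52, 6.16, 3.53 and 1.93 RPKM. Yg Het livers had 0.341, 1.21, 1.14, 0.928 and 0.329 RPKM and Yg WT livers 3.41, 0.622, 4.43, 0.590 and 2.11 RPKM in Yg WT. As for Cyp2c69, O (YgWT) replicate 5 stood apart from the other 4 of its group and no O (Yg Het) liver overlapped a young liver, while Yg WT livers overlapped O-O and O (YgWT) livers. Cyp2c40 was higher in O (Yg Het) than in O (YgWT) livers by 2.04 ± 0.56 (adjusted p = 0.00940) and higher in O (Yg Het) than in Yg Het livers by 3.30 ± 0.56 (adjusted p = 0.00823). Between Yg Het and Yg WT livers both Cyp2c genes were on the low side in Yg Het, Cyp2c40 at -0.89 ± 0.56 (adjusted p = 0.370) and Cyp2c69 at -0.81 ± 0.55 (adjusted p = 0.419).

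Cyp2b9 and Cyp2b13, P450 genes with female-predominant expression in mouse liver, spread widely within each old group. Cyp2b9 stood at 35.5, 61.2, 140 (O (Yg Het) replicate 3), 12.9 and 10.3 RPKM in O (Yg Het) livers, against 1.23, 0.836, 4.88, 22.8 and 65.8 RPKM in O (YgWT) livers. O-O livers fell apart into 2 livers at 42.2 RPKM (replicates 2 and 5) and 3 between 3.81 and 6.52 RPKM. Yg Het livers ran from 1.28 to 11.4 RPKM and Yg WT livers from 1.96 to 6.57 RPKM. The old groups overlapped over most of their range. The difference between O (Yg Het) and O (YgWT) livers was 2.24 ± 0.94 (adjusted p = 0.0699) and did not pass. It passed, with an adjusted p down to 0.0150, without O (YgWT) replicate 4 or 5 or O (Yg Het) replicate 5. Against Yg Het livers Cyp2b9 was higher in O (Yg Het) livers by 3.50 ± 0.94 (adjusted p = 0.0394), a call held in 3 of 10 omissions (adjusted p up to 0.119). It was lost without Yg Het replicate 1, 2 or 4 or O (Yg Het) replicate 1, 2, 3 or 4, and also with no filter, after median-of-ratios scaling, with the replicate block and with voom (adjusted p up to 0.151).

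Cyp2b13 was the lowest of the 8 and rested on few reads. It had 14, 71, 313, 13 and 14 reads in O (Yg Het) livers and 6, 1, 14, 90 and 241 reads in O (YgWT) livers, and O-O livers had 3, 110, 3, 2 and 98 reads. Young livers had 0 to 3 reads in Yg Het and 1 to 4 in Yg WT, and the liver with 0 reads (Yg Het replicate 5) allows a level of up to 0.0670 RPKM (3 reads, counting error only). The 2 O-O livers high in Cyp2b9 were also the 2 high in Cyp2b13. In no comparison did Cyp2b13 pass, and between O (Yg Het) and O (YgWT) livers it differed by 0.21 ± 0.63 (adjusted p = 0.818, means 1.76 ± 2.72 and 1.45 ± 2.13 RPKM). No O (Yg Het) liver overlapped a Yg Het liver, at 1.48 ± 0.63 (adjusted p = 0.122). By mean the order of Cyp2b13 was O (Yg Het), O (YgWT), O-O, Yg WT and Yg Het and that of Cyp2b9 O (Yg Het), O-O, O (YgWT), Yg WT and Yg Het, with overlap between neighbours in both.

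Acot3, whose enzyme releases fatty acids from coenzyme A in peroxisomes, held a single high liver in several groups. It stood at 8.17, 7.48, 30.2, 5.79 and 3.47 RPKM in O (Yg Het) livers, against 0.0792, 0.765, 0.261, 0.528 and 6.39 RPKM in O (YgWT) livers. O-O livers had 2.79, 1.71, 2.67, 2.73 and 9.97 RPKM. Yg Het livers had 2.98, 1.12, 15.8, 2.97 and 2.70 RPKM, against 1.62, 0.183, 0.424, 0.308 and 0.603 RPKM in Yg WT livers. O (YgWT) replicate 5, O-O replicate 5 and Yg Het replicate 3 stood above the rest of their groups, and 4 of the 5 Yg WT livers were below every Yg Het liver. Acot3 was higher in O (Yg Het) than in O (YgWT) livers by 2.74 ± 0.63 (adjusted p = 0.00325, means 11.0 ± 10.9 and 1.60 ± 2.69 RPKM). The difference between Yg Het and Yg WT livers was 1.95 ± 0.63 (adjusted p = 0.0687), and that between O-O and Yg WT livers 1.87 ± 0.63 (adjusted p = 0.0560). The O-O difference passed without Yg WT replicate 1 or O-O replicate 2 (adjusted p down to 0.0435). By mean the order was O (Yg Het), Yg Het, O-O, O (YgWT) and Yg WT, with overlap between each pair of neighbours.

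Slc22a26, the transporter gene, was higher in O (Yg Het) than in Yg Het livers and higher in O-O than in Yg WT livers. It stood at 3.52, 3.74, 19.1, 2.86 and 3.14 RPKM in O (Yg Het) livers, against 0.236, 0.111, 1.00, 0.131 and 0.383 RPKM in Yg Het livers. O-O livers had 5.04, 4.73, 2.49, 2.88 and 1.63 RPKM, against 0.668, 0.0940, 0.111, 0.0815 and 0.182 RPKM in Yg WT livers. O (YgWT) livers had 0.154, 2.27, 2.06, 0.566 and 10.4 RPKM. No O (Yg Het) or O-O liver overlapped a young liver, while O (YgWT) livers reached from the young range to above the O-O range. Slc22a26 was higher in O (Yg Het) than in Yg Het livers by 2.68 ± 0.55 (adjusted p = 0.0166), a call lost without Yg Het replicate 2 or 4 (adjusted p up to 0.0644). In O-O livers it was higher than in Yg WT livers by 2.37 ± 0.55 (adjusted p = 0.00991), a call held in 10 of 10 omissions. Between O (Yg Het) and O (YgWT) livers the difference was 1.25 ± 0.55 (adjusted p = 0.0803), which passed without O (YgWT) replicate 5 (adjusted p = 0.00759). By mean the order was O (Yg Het), O-O, O (YgWT), Yg Het and Yg WT, with overlap between each pair of neighbours.

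**Figure D1:**
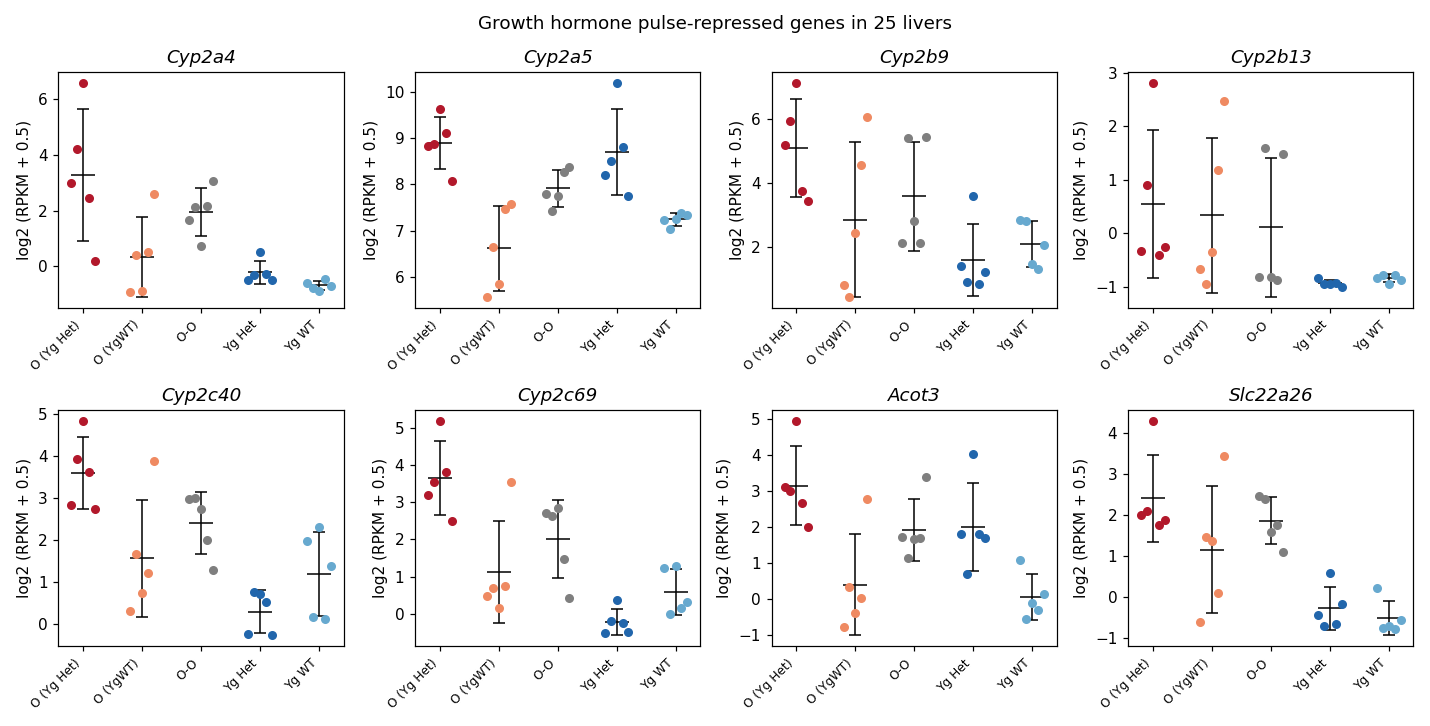
Log2 of RPKM plus 0.5 (vertical axis) of each of the 8 genes in every liver (points), by group (horizontal axis), with lines for the mean ± SD over 5 livers. O (Yg Het) livers had the highest mean RPKM of the 5 groups for 8 of 8 genes, and replicate 3 was the highest of that group in each.

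The first comparison between groups sets a Manf-heterozygous young partner against a WT young partner in the old liver. Of the 8 genes, 5 were higher in O (Yg Het) than in O (YgWT) livers (Cyp2a4, Cyp2a5, Cyp2c40, Cyp2c69 and Acot3) and 0 were lower, where 3.07% of all tested genes were higher and 29.6% lower. After median-of-ratios scaling 5 of the 8 were again higher, where 8.93% of all tested genes were higher and 9.53% lower. The median difference of the 8 genes was 2.26, beside -0.14 over all tested genes. Cyp2a5 was the only member whose groups did not overlap, as was the case in this direction for 1.44% of genes. Each of the 5 calls held in 10 of 10 omissions of a single library, and Cyp2a4 was lost when voom was run on recovered reads or when only the compared groups were fitted (adjusted p up to 0.0726). Without O (Yg Het) replicate 3 and O (YgWT) replicate 5, the livers highest in their groups for 8 of 8 genes, all 7 members that then passed the filter were higher, where 2.25% of all genes tested in that fit were higher and 21.1% lower. That omission was chosen after the values had been seen.

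Cell type markers differed between the same old groups, and in bulk RNA fewer cells of a type and less RNA per cell cannot be told apart. The summed level of 8 hepatocyte markers was 36857 to 67824 RPKM in O (Yg Het) livers and 22460 to 48673 RPKM in O (YgWT) livers. That of 8 pericentral markers, of which Rhbg was at 0 or not listed, was 3025 to 3618 RPKM in O (Yg Het) and 1930 to 3218 RPKM in O (YgWT) livers. Kupffer cell markers summed to 34.8 to 111 RPKM in O (Yg Het) and 119 to 250 RPKM in O (YgWT) livers, and 4 of 6 were lower. Stellate cell markers summed to 35.8 to 82.4 RPKM in O (Yg Het) and 90.0 to 141 RPKM in O (YgWT) livers, with 5 of 7 lower. For sinusoidal endothelium the sums were 18.7 to 44.2 RPKM in O (Yg Het) and 43.4 to 58.0 RPKM in O (YgWT) livers, with 4 of 6 lower, and both tested neutrophil markers were lower too. Of all tested genes 29.6% were lower there. After median-of-ratios scaling 4 of 6 Kupffer, 4 of 7 stellate, 2 of 6 endothelial and 2 of 2 neutrophil markers were lower, beside 9.53% of all tested genes. Of 8 hepatocyte markers 3 were higher before scaling and 4 after it, and of 6 tested pericentral markers 3 and 3. Hepatocyte marker sums lay mostly above, and those of Kupffer, stellate and endothelial cells mostly below, in O (Yg Het) livers. Some sums rest largely on a single gene. In O-O livers Alb averaged 25536 RPKM beside a median hepatocyte sum of 40320 RPKM, and Dcn 95.2 RPKM beside a median stellate sum of 122 RPKM. In O (YgWT), replicate 4 held 142 RPKM of skeletal muscle markers, against at most 1.16 RPKM in any O-O or O (Yg Het) library. In Yg WT, replicate 2 held 194 RPKM of exocrine pancreas markers. The 5 calls held without O (YgWT) replicate 4, and the part of the cell type markers in them was not tested.

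Between the young partners, 1 of 8 genes was higher in Yg Het than in Yg WT livers (Cyp2a5) and 0 were lower, where 3.72% of all tested genes were higher and 1.41% lower. It was also the only member without overlap in this comparison (3.17% of genes in this direction). The median of the 8 differences was 0.07, beside 0.05 over all genes, and 4 of 8 were above 0. Pericentral markers summed to 3048 to 4844 RPKM in Yg Het and 2154 to 3147 RPKM in Yg WT livers, with replicate 3 of Yg Het, the liver highest in Cyp2a5, at the top. Most of that sum is a single gene, Cyp2e1, which averaged 2168 ± 362 RPKM in Yg WT livers. Of 6 tested pericentral markers, 1 was higher and 0 lower in Yg Het livers, and after median-of-ratios scaling it was Cyp2e1 alone. The part of pericentral markers in the Cyp2a5 result was not tested.

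The next comparisons set old livers against young livers. O (Yg Het) livers were of WT mice and Yg Het livers of ManfHet mice, so age and liver genotype cannot be told apart between them. Against Yg Het livers, 5 of 8 genes were higher in O (Yg Het) livers (Cyp2a4, Cyp2b9, Cyp2c40, Cyp2c69 and Slc22a26) and 0 were lower, where 0.907% of all tested genes were higher and 4.64% lower. The median of the 8 differences was 2.99, beside -0.13 over all genes, and Cyp2b13, Cyp2c40, Cyp2c69 and Slc22a26 did not overlap (0.715% of genes in this direction). Without O (Yg Het) replicate 3 and Yg Het replicate 3, a choice made after the values had been seen, 4 of 8 were higher, where 0.481% of all genes tested in that fit were. With voom on recovered reads 2 of 8 were higher there (Cyp2c40 and Cyp2c69), where 0.768% of all tested genes were. Between O-O and Yg WT livers, 2 of 8 were higher (Cyp2a4 and Slc22a26), 0 were lower and the median was 1.46 beside 0.08 over all genes, where 9.11% of all tested genes were higher and 1.74% lower (4.09% and 4.14% after median-of-ratios scaling). Of the 8, 4 did not overlap there (Cyp2a4, Cyp2a5, Acot3 and Slc22a26), as was the case in this direction for 6.16% of genes. With voom on recovered reads 0 of the 8 were past the threshold between O-O and Yg WT livers, where 8.24% of all tested genes were. With only the compared groups fitted 4 of the 8 were, where 5.34% of all genes tested in that fit were.

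Between O (YgWT) and Yg WT livers limma called 0 of 8 genes, where 0.117% of all tested genes passed in either direction. Of the 8, 1 had an unadjusted p under 0.05, and voom on recovered reads also called 0, beside 0.0534% of all tested genes. The largest of these differences was that of Slc22a26 at 1.66 ± 0.55 (adjusted p = 0.219), and Cyp2a5 was the single member below 0, at -0.63 ± 0.39. The young livers of the heterozygous and WT pairings also differed in Manf genotype. Whether the difference from the young partner itself differed between these pairings was tested as an interaction. There limma called 0 of 8 genes, where 0.0107% of all tested genes passed in either direction. Of the 8, 3 had an unadjusted p under 0.05, and voom called 0, beside 0 of all tested genes. The 2 Cyp2c genes came nearest, Cyp2c69 at 3.34 ± 0.78 (adjusted p = 0.0583, 0.0245 to 0.118 over 20 omissions) and Cyp2c40 at 2.93 ± 0.79 (adjusted p = 0.0641, 0.0349 to 0.125). Without O (Yg Het) replicate 5, 3 of 8 passed (Cyp2a4 with both Cyp2c genes), without Yg Het replicate 5 or O (YgWT) replicate 4 both Cyp2c genes, and without O (YgWT) replicate 5 Cyp2c69. These omissions also moved the share of all tested genes past the threshold, to 7.26% without O (Yg Het) replicate 5, 9.77% without Yg Het replicate 5, 13.2% without O (YgWT) replicate 4 and 0.0107% without O (YgWT) replicate 5. All 8 interaction estimates were above 0, with a median of 1.74 beside -0.21 over all genes.

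Old-old pairs were the remaining control for the old livers. Between O (YgWT) and O-O livers limma called 0 of 8 genes, where 1.17% of all tested genes passed in either direction. Of the 8, 3 had an unadjusted p under 0.05, and voom called 0, beside 2.05% of all tested genes. Cyp2a5 differed by -1.30 ± 0.39 (adjusted p = 0.0884), Acot3 by -1.52 ± 0.63 (adjusted p = 0.224) and Cyp2a4 by -1.62 ± 0.76 (adjusted p = 0.303). The median was -0.87, beside -0.01 over all genes, and Cyp2b13 was the single member above 0. Between O (Yg Het) and O-O livers 1 of 8 was higher (Cyp2c69) and 0 were lower, where 0.907% of all tested genes were higher and 22.7% lower (3.53% and 6.44% after median-of-ratios scaling). All 8 differences were above 0 with a median of 1.21, beside -0.14 over all genes, and Cyp2a5 was at 0.98 ± 0.39 (adjusted p = 0.0672). The comparisons of O (YgWT) with O-O and of O (Yg Het) with O (YgWT) share the O (YgWT) livers, so their estimates are not independent.

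**Figure D2:**
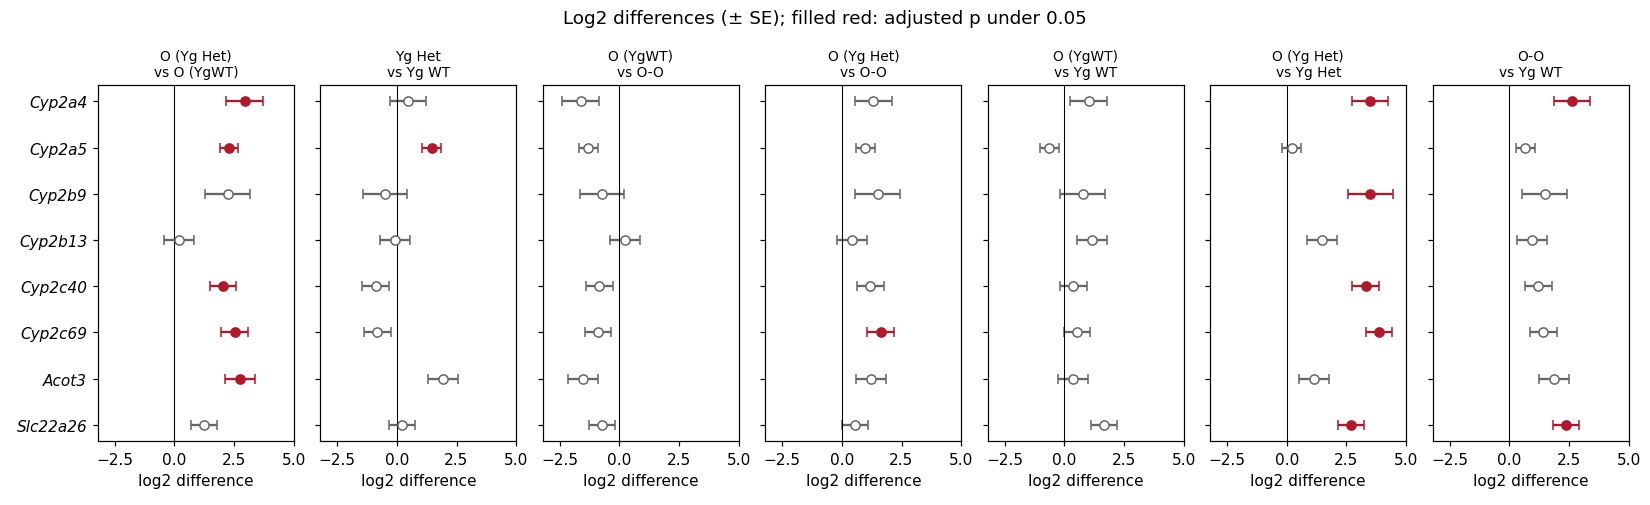
Log2 difference ± SE (horizontal axis, from limma on RPKM plus 0.5) of each of the 8 genes in the 7 comparisons of groups, with filled red points where the adjusted p was under 0.05. The numbers of filled points are 5 for O (Yg Het) against O (YgWT), 5 for O (Yg Het) against Yg Het, 2 for O-O against Yg WT, 1 each for Yg Het against Yg WT and O (Yg Het) against O-O, and 0 in the other 2.

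Livers of the same group differed from each other in a shared way. Within the groups, O (Yg Het) replicate 3 was highest for 8 of 8 genes and O (YgWT) replicate 5 for 8 of 8, Yg Het replicate 3 for 6, and O-O replicate 5 for 4. At the low end, O (Yg Het) replicate 5 was lowest for 6 genes and O (YgWT) replicate 1 for 5. O-O replicate 5 was split, since it was highest for Cyp2a4, Cyp2a5, Cyp2b9 and Acot3 and lowest for Cyp2c40, Cyp2c69 and Slc22a26.

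**Figure D3:**
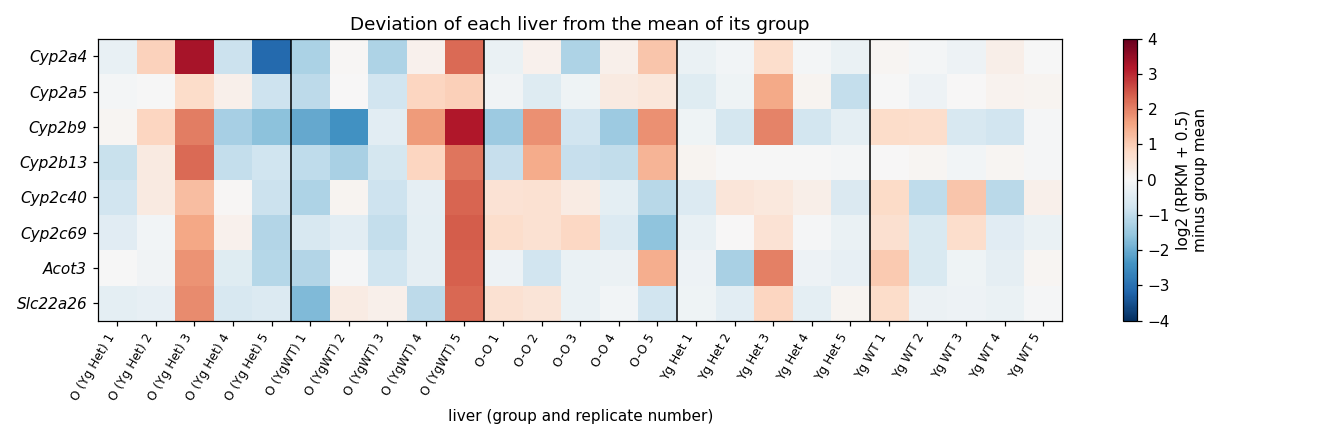
Deviation of each liver (columns, by group) from the mean of its group in log2 of RPKM plus 0.5 (color scale) for the 8 genes (rows). The columns of O (Yg Het) replicate 3 and O (YgWT) replicate 5 are high for 8 of 8 genes.

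The deviations from the group means were compared between genes over the 25 livers, with 28 pairs of genes and p-values from 100000 permutations within groups. All 28 Pearson correlations were above 0, from 0.418 to 0.915 with a median of 0.563, and 19 passed after Benjamini-Hochberg adjustment over the 28. By Spearman's rho 10 passed. Cyp2c40 and Cyp2c69 were the closest pair, with r = 0.915 and rho = 0.912 (permutation p = 1e-05 for r, the smallest these permutations can give, adjusted p = 0.00028), and r was 0.881 without the 2 livers farthest from the median. Cyp2b9 and Cyp2b13 had r = 0.874 (permutation p = 4e-05, adjusted 0.00056) and rho = 0.825 (permutation p = 0.00032, adjusted 0.00299), and r was 0.834 without 2 livers. Reads that match both copies of a pair could add to these values if they were counted for both, and that share was not tested. Across families, Cyp2a5 and Acot3 had r = 0.757 (adjusted permutation p = 0.00118) and rho = 0.642, and r was 0.665 without 2 livers. Leaving out the 2 farthest livers lowered the median r to 0.466, with a range of -0.03 (Cyp2b13 and Cyp2c69) to 0.881, so part of the shared variation rests on a few livers.

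**Figure D4:**
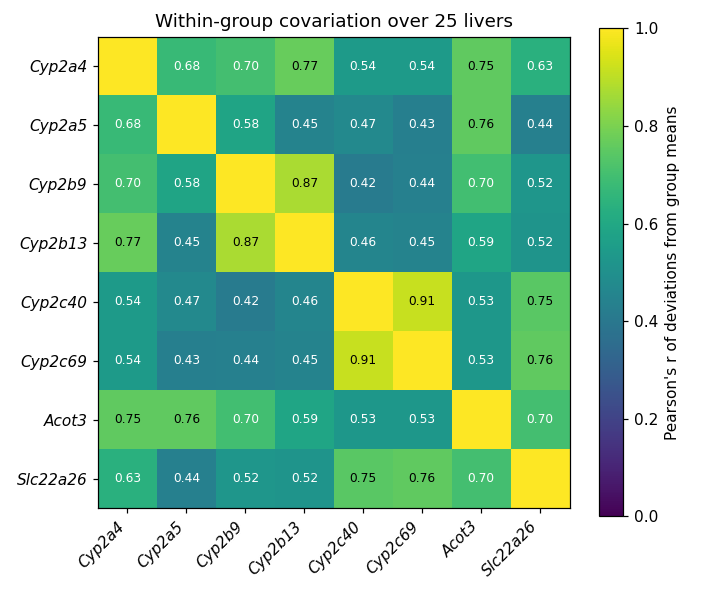
Pearson correlation (color and printed value) between each pair of the 8 genes, of deviations from the group mean in log2 of RPKM plus 0.5 over 25 livers. Cyp2c40 with Cyp2c69 (0.915) and Cyp2b9 with Cyp2b13 (0.874) are the strongest cells.

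Over the 25 libraries with the group differences left in, the 8 genes were set beside each other and beside the rest, as a description, since the libraries share groups. Among themselves, Cyp2c40 and Cyp2c69 were the most alike (r = 0.967), and Cyp2b9 was most like Cyp2b13 (r = 0.864). Among genes other than the 8, Cyp2c68 was nearest to Cyp2c40 (r = 0.880) and to Cyp2c69 (r = 0.881), followed for both by Prlr, the prolactin receptor gene (0.832 and 0.848). Slc22a27, another organic anion transporter gene of the same cluster, was nearest to Slc22a26 (r = 0.950), and Acot4, a further acyl-CoA thioesterase gene, to Acot3 (r = 0.978). Cyp2a22 was nearest to Cyp2a4 (r = 0.832), Wee1, a cell cycle kinase gene, to Cyp2a5 (r = 0.904), Hsd11b1, the gene of an enzyme that regenerates active glucocorticoid, to Cyp2b9 (r = 0.835) and the sulfotransferase gene Sult2a7 to Cyp2b13 (r = 0.850).

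Other genes with a female bias in mouse liver were compared with the 8. Of 34 further such genes, 16 were tested. Between O (Yg Het) and O (YgWT) livers, 9 of 16 were higher and 1 was lower (10 and 1 after median-of-ratios scaling). Of all tested genes 3.07% were higher and 29.6% lower there (8.93% and 9.53% after scaling). The fatty acid hydroxylase gene Cyp4a10 was higher by 1.64 ± 0.53, the proton pump subunit gene Atp6v0d2 by 1.33 ± 0.42 and the peroxisomal transporter gene Abcd2 by 1.27 ± 0.48. The list median was 1.02. Against Yg Het livers, 7 of 16 were higher in O (Yg Het) livers and 0 lower (3 and 0 after scaling), and in O-O against Yg WT livers 6 were higher and 1 lower (3 and 1 after scaling). Of all tested genes 0.907% were higher in the first of these (0.896% after scaling) and 9.11% in the second (4.09%). Between O (Yg Het) and O-O livers only 1 of 16 was higher and 1 lower (1 and 0 after scaling), where 0.907% of all tested genes were higher and 22.7% lower. The list median there was 0.39, beside -0.14 over all genes. None of the 16 passed between Yg Het and Yg WT, between O (YgWT) and O-O, or between O (YgWT) and Yg WT livers.

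Male-biased genes that GH pulses induce were taken as the opposite class, and 19 of 20 were tested. In O-O livers, 11 of 19 were lower than in Yg WT livers and 0 higher (12 and 0 after median-of-ratios scaling). Of all tested genes 1.74% were lower there (4.14% after scaling). Selenbp2, the gene of a selenium-binding protein, was at -2.97 ± 0.62, the steroid dehydrogenase gene Hsd3b5 at -2.88 ± 0.45, the fatty acid elongase gene Elovl3 at -2.17 ± 0.56 and the organic anion transporter gene Slco1a1 at -1.93 ± 0.35. In O (Yg Het) against Yg Het livers, 8 of 19 were lower and 0 higher (3 and 0 after scaling), where 4.64% of all tested genes were lower (0.181% after scaling). Between O (Yg Het) and O (YgWT) livers, 6 of 19 were lower and 0 higher, where 29.6% of all tested genes were lower, but after scaling only Elovl3 stayed lower and Susd4 was higher. Against O-O livers none was lower, and 2 of 19 were higher in O (Yg Het) livers (Slco1a1 at 1.31 ± 0.35 and Susd4 at 0.87 ± 0.22) and 1 in O (YgWT) livers (Nudt7 at 1.03 ± 0.25), in the same numbers after scaling. Between O (Yg Het) and O (YgWT) livers the median of all genes was -0.14 before that scaling and 0.001 after it, while that of the 8 genes was 2.26 before and 2.42 after it. Elovl3 averaged 19.4 ± 27.7 RPKM in O (Yg Het) and 81.2 ± 39.0 RPKM in O (YgWT) livers, a difference of -2.67 ± 0.56.

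Of 17 tested genes of GH signalling and the transcription factors that act with it, 1 was higher and 6 were lower in O (Yg Het) than in O (YgWT) livers. After median-of-ratios scaling 4 were higher (Ghr, Igf1, Igfals and Trim24) and 3 lower (Stat5a, Stat5b and Ptpn6), so that the direction of the list depends on the scaling. Of all tested genes 3.07% were higher and 29.6% lower before it, and 8.93% and 9.53% after it. Stat5b averaged 7.03 ± 1.20 RPKM in O (Yg Het) and 10.1 ± 0.729 RPKM in O (YgWT) livers, at -0.50 ± 0.10. Socs3, an inhibitor of the GH receptor's kinase, was at -1.06 ± 0.39 and did not stay past the threshold after scaling. Ghr, the GH receptor gene, averaged 37.4 RPKM in O (Yg Het) and 36.2 RPKM in O (YgWT) livers, and Igf1, the hepatic hormone gene that GH induces, 40.4 RPKM in O (Yg Het) and 37.7 RPKM in O (YgWT) livers. Trim24, a coregulator gene that is itself female-biased and was counted in that list too, was higher by 0.99 ± 0.17.

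Receptors of foreign compounds are known to act on P450 genes of the Cyp2a and Cyp2b families. Of 10 tested genes of the CAR and PXR receptors and their targets, 4 were higher and 0 lower in O (Yg Het) than in O (YgWT) livers (5 and 0 after median-of-ratios scaling). Of all tested genes 3.07% were higher before that scaling and 8.93% after it. Cyp2b10 and Cyp3a11, tested targets on this list, were not among the 5 higher after scaling. Nr1i3, the gene of CAR, averaged 81.1 ± 24.6 RPKM in O (Yg Het) and 34.0 ± 19.97 RPKM in O (YgWT) livers, at 1.36 ± 0.33, and Por, the gene of the reductase that feeds electrons to every microsomal P450, was higher by 1.15 ± 0.22. Of 10 tested PPARA targets, a list in which Acot3 would belong, 1 was higher (Cyp4a31) and 1 lower (Pdk4) in that comparison (3 and 1 after scaling). Cyp4a10, Cyp4a14 and Acot4, of the same gene families as Cyp4a31 and Acot3, were counted in the female-biased list and not in this one. Both counts therefore depend on how the lists were drawn.

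Clock genes changed between the same groups. Of 14 tested, 9 were higher and 3 lower in O (Yg Het) than in O (YgWT) livers, and 8 were higher and 3 lower in Yg Het than in Yg WT livers (9 and 3, and 7 and 3, after median-of-ratios scaling). In O-O against Yg WT livers 8 were higher and 3 lower, and in O (YgWT) against O-O livers 2 higher and 6 lower (6 and 3, and 3 and 6, after scaling). None of the 14 passed between O (Yg Het) and O-O, between O (Yg Het) and Yg Het, or between O (YgWT) and Yg WT livers. Dbp, whose protein binds D-boxes and is known in mouse liver to act on Cyp2a4 and Cyp2a5, averaged 42.0 ± 5.52 RPKM in O (Yg Het) and 11.5 ± 7.66 RPKM in O (YgWT) livers. It averaged 40.7 ± 7.97 RPKM in Yg Het and 14.0 ± 6.10 RPKM in Yg WT livers, and 39.2 ± 5.58 RPKM in O-O livers. The order of the 5 means was the same for Dbp and Cyp2a5, whose O-O mean was 249 ± 68.3 RPKM. No time of collection is given in the sources used here, and the part of clock phase in the results for Cyp2a5 was not tested.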

How the data were processed

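Liver RNA of 25 mice (flash-frozen, extracted with Trizol and made into TruSeq Stranded mRNA LT libraries, per the labels' protocols) was analysed from a single deposited table of RPKM values, which the authors computed per gene and library. The submitters' processing notes name STAR 2.4.2a, HTSeq and the mm10 build. The strand setting and how reads matching several genes were treated are not given in the sources used here. Of 60354 rows, 36222 had no value, 6272 were 0 in every library, 1 was infinite and 24 bore date numbers. Whole reads were recovered within 0.02 reads for 17836 of 17838 genes from the spacing of values up to 0.3 RPKM, which gave 21.8 to 27.6 M reads (megareads) per library. All columns were mapped to samples by their labels.

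The 9372 genes that reached 1 RPKM in 5 or more of the 25 libraries were tested on log2(RPKM + 0.5) with limma 3.58.1 (R 4.3.3), in 1 model of 5 groups with 20 residual degrees of freedom, an intensity trend and Benjamini-Hochberg adjustment (threshold 0.05). In all, 7 comparisons and 1 interaction were made. Alternatives covered the constant, the filter, median-of-ratios scaling, a replicate block, voom on recovered reads, the groups in the fit and each library left out. The steps were tested on simulated data. Read counts per gene came from the recovery, and intervals cover counting error only. The 8 genes and all gene lists were chosen with earlier results of these data known. For each list described, up to 4 passing genes were named by the size of the difference, given a mean of 1 RPKM or more (a gene that this rule selects is not reported here), and genes most alike were ranked by Pearson's r over 25 libraries. Replicates are samples labelled as separate within a group, and whether their numbers pair samples across groups was not settled. Promoters are from RefSeq (GRCm38.p6, 8 of 8 matched) and positions from GENCODE M21. Other software was Biopython 1.88, matplotlib 3.10.9, scipy 1.17.1, pandas 2.3.3, numpy 2.4.6 and Python 3.11.15.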

Additional observations from a re-analysis of the deposited data

Results flagged for a closer look

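In 16 of the 40 sets made of a gene and a group, a liver stood apart from the other 4 by Dixon's criterion (critical value 0.710 for 5 livers), where chance gives about 1 in 20 for normally distributed values. The criterion was applied to RPKM, which is skewed to high values, and in each case it was the highest liver. On log2 of RPKM plus 0.5, a scale tried after the values had been seen, 6 of the 16 remained (Cyp2a4 and Cyp2b9 in Yg Het, Cyp2c69 in O (YgWT), Acot3 in O-O, and Slc22a26 in O (Yg Het) and in Yg WT). The 8 genes vary together within groups, so these sets are not independent of each other.

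In O (Yg Het) livers, replicate 3 stood apart for 5 genes. It read 96.1 RPKM for Cyp2a4 (the next liver 18.0), 6.55 RPKM for Cyp2b13 (next 1.37), 36.0 RPKM for Cyp2c69 (next 13.5), 30.2 RPKM for Acot3 (next 8.17) and 19.1 RPKM for Slc22a26 (next 3.74). In O (YgWT) livers, replicate 5 stood apart for 5 genes, at 5.60 RPKM for Cyp2a4 (next 0.940), 14.3 RPKM for Cyp2c40 (next 2.67), 11.1 RPKM for Cyp2c69 (next 1.17), 6.39 RPKM for Acot3 (next 0.765) and 10.4 RPKM for Slc22a26 (next 2.27).

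In Yg Het livers, replicate 3 stood apart for 4 genes, at 0.919 RPKM for Cyp2a4 (next 0.321), 1182 RPKM for Cyp2a5 (next 448), 11.4 RPKM for Cyp2b9 (next 2.14) and 15.8 RPKM for Acot3 (next 2.98). The remaining sets were Acot3 in O-O replicate 5, at 9.97 RPKM (next 2.79), and Slc22a26 in Yg WT replicate 1, at 0.668 RPKM (next 0.182).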

How the results depend on the processing

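Of 8 genes, the number past the threshold between O (Yg Het) and O (YgWT) was 5, and 5 to 7 over omissions of a single library. Over those omissions 1958 to 3484 of all tested genes passed. Between Yg Het and Yg WT 1 of the 8 passed, 0 with no filter or with only the groups compared, and 0 to 1 over omissions. Of all tested genes 1.56% passed with no filter, 1.99% with only the groups compared, and 140 to 839 genes over omissions. Between O (Yg Het) and O-O 1 of the 8 passed, 0 with a constant of 0.1 or no filter, and 0 to 3 over omissions (3 without O (Yg Het) replicate 5). Of all tested genes 0.928% were higher with a constant of 0.1, 0.477% with no filter and 1.17% without that replicate. Against Yg Het, O (Yg Het) gave 5 of the 8, 2 with voom, 4 with no filter or median-of-ratios scaling (without Cyp2b9) and 2 to 5 over omissions (2 without Yg Het replicate 2 or 4, 3 without Yg Het replicate 1). Of all tested genes 0.907% were higher in the main fit, 0.768% with voom, 0.325% with no filter and 0.896% after scaling. The share was 0.0749% without Yg Het replicate 2, 0.139% without Yg Het replicate 4 and 0.203% without Yg Het replicate 1. O-O against Yg WT gave 2 of the 8, 1 with a constant of 1, 0 with voom, 4 with only the groups compared and 1 to 3 over omissions. Of all tested genes 9.12% were higher with a constant of 1, 4.06% with voom and 4.01% with only the groups compared. Over omissions 401 to 1325 of all tested genes passed. O (YgWT) against O-O and against Yg WT gave 0 of the 8 in every omission, and the interaction 0 to 3. Of all tested genes 12 to 231, 4 to 28 and 0 to 1231 passed in these 3 over omissions. The causes were not tested.

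Direction changed only on leaving out a library. Cyp2b13 ranged from -0.36 to 0.74 between O (Yg Het) and O (YgWT), -0.31 to 0.60 between O (YgWT) and O-O, -0.13 to 0.81 between O (Yg Het) and O-O, and -0.27 to 0.83 for the interaction. Between O (YgWT) and Yg WT, Cyp2b9 ranged from -0.035 to 1.37, Cyp2c40 from -0.21 to 0.68, Cyp2c69 from -0.075 to 0.77 and Acot3 from -0.25 to 0.64. Cyp2a5 ranged from -0.033 to 0.58 between O (Yg Het) and Yg Het. None of these had passed.

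With the replicate number as a block, 4 genes in place of 5 passed between O (Yg Het) and Yg Het (Cyp2b9 was lost), and no other call of the 8 genes changed. Of all tested genes 0.534% were higher there with the block, beside 0.907% without it. Over all comparisons of groups, samples with the same number had correlations of -0.527 to 0.275. Between O (YgWT) and Yg WT livers these were 0.0766 to 0.275, and 3 of 5 were best with their own number. Between O (Yg Het) and Yg Het livers they were -0.125 to 0.232, and 2 of 5 were best with their own number. Whether the numbers pair old livers with young livers was therefore not settled. Depth limits Cyp2b13 (0 to 4 reads in young livers) and Cyp2a4 in young livers (2 to 40 reads).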
